A study of Mus musculus with 6 samples.

Results

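The AP-1 and immediate early genes were followed here as 9 genes, *Jun*, *Junb*, *Jund*, *Fos*, *Fosb*, *Fosl2*, *Egr1*, *Nr4a1* and *Arc*, which were chosen by name and make up 9 of the 32286 genes counted. All 9 were listed in each of the 6 deposited tables, which hold transcript molecules (UMIs) counted per gene and nucleus by single-nucleus RNA sequencing of whole mouse cerebellum. The SCA1 group was 3 *Pcp2-ATXN1[82Q]* mice, in which the *Pcp2* promoter drives human *ATXN1* with an expanded CAG repeat in Purkinje cells. The WT group was 3 C57Bl6 control mice, described as sex-matched littermates. All 6 mice were 12 weeks old, and each gave 1 library, so that the mouse was the replicate. Tissue was either frozen or fresh before nuclei were isolated, and the sources used here do not say which state belonged to which mouse. Nuclei carried the SingleR label that the authors had deposited, and UMIs were summed per mouse and label.

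Jun proteins pair with each other or with Fos proteins to form AP-1, a transcription factor that binds DNA through a basic leucine zipper. Many of these genes are switched on within minutes of synaptic activity, growth factors or stress, without new protein synthesis, and their transcripts are short-lived. In the cerebellum such bursts of transcription follow calcium entry and kinase signaling, and handling of living tissue also sets them off.

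Cyclic AMP and calcium signals reach several of these genes through CREB, which binds the core TGACG. RefSeq promoter sequences (GRCm38.p6) were matched for 7 of the 9 members. TGACG, read on either strand within 250 bases before the start, was present in 4 of the 7, *Fos*, *Fosb*, *Junb* and *Nr4a1*, and in 17.8% of 32851 promoters of that length. The longer palindrome TGACGTCA, which contains TGACG, was in 0 of the 7 and in 1.55% of all promoters. The AP-1 motif TGAGTCA was in 0 of the 7 and in 4.46% of all promoters. These letters describe the windows and do not show that a factor was bound. The last 150 bases before the start are shown for the 4 promoters with a match and, beside them, for *Jun*, which had none. Capitals mark TGACG or its reverse complement CGTCA. The windows are chr12:85473740-85473889 (plus strand) for *Fos*, chr7:19310046-19310195 (minus strand) for *Fosb*, chr8:84978749-84978898 (minus strand) for *Junb*, chr15:101266696-101266845 (plus strand) for *Nr4a1* and chr4:95052223-95052372 (minus strand) for *Jun*.
Fos: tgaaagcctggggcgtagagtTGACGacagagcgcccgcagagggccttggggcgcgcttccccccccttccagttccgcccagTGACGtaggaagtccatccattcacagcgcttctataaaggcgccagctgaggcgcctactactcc
Fosb: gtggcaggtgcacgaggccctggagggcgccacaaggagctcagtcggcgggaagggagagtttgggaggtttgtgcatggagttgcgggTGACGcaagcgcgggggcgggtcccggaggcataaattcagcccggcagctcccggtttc
Junb: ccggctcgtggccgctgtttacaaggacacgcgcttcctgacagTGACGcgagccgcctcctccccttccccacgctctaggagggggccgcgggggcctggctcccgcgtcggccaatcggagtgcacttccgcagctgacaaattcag
Nr4a1: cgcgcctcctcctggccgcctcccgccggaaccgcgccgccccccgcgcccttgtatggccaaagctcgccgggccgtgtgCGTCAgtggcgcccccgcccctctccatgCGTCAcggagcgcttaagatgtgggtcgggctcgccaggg
Jun: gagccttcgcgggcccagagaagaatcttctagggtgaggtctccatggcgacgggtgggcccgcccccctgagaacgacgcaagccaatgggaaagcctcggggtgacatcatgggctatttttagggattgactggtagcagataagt

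In the *Fos* promoter the 2 matches began 129 and 66 bases before the start. The single matches lay 60 bases before the start in *Fosb* and 106 in *Junb*. *Nr4a1* held 4 matches in its 250 bases, all on the reverse strand, of which 2 fall in the stretch shown. The *Nr4a1* start used by RefSeq lies 12577 bases from the outermost start in GENCODE, within the annotated gene. The starts of *Jund* and *Fosl2*, both without a match, lie 1210 and 671 bases from it, so that another start would give other windows for these 3 genes. *Jun* (chromosome 4, 95049034 to 95052222) and *Jund* (chromosome 8, 70698949 to 70700616) are annotated on GRCm38 as single exons, with 0 intronic bases. *Nr4a1* (chromosome 15, 101254269 to 101274795) holds 17018 intronic bases, and *Fos* (chromosome 12, 85473890 to 85477273) holds 1032. Reads in introns were counted, so that unspliced nuclear RNA adds to *Nr4a1* in a way it cannot for *Jun* and *Jund*.

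The libraries held 3354 to 10897 nuclei and 18916647 to 98366627 UMIs each, with a median of 2246.5 to 7253 UMIs per nucleus. WT mouse 2 was the shallowest. Pairs of libraries shared 7 to 44 cell barcodes. Of 24 labels, 13 had at least 10 nuclei in each mouse and together held 45042 of 45473 nuclei. The labels of oligodendrocytes (OL), velate astrocytes (VA), Purkinje cells (PCs) and Bergmann glia (BG) each held the highest level of all 5 of their marker genes, and the granule neuron label held that of 4 of 5, with *Slc17a7* higher under the label Neuron.Slc17a6.Sln. The label Endothelial_Tip.Dcn.Nnat held the highest level of the fibroblast genes *Dcn* (374 CPM) and *Col1a2* (347 CPM), of the endothelial genes *Flt1* (94.9 CPM) and *Ly6c1* (4.72 CPM) and of the mural gene *Pdgfrb* (94.7 CPM). The endothelial genes *Cldn5* and *Pecam1* were at 1.88 and 2.25 CPM there. Its markers thus came from more than 1 cell type, and it is called by its label. Human *ATXN1* was counted at 12 to 19 UMIs in the PCs of each SCA1 mouse and at 0 in those of each WT mouse. The granule neurons of WT mice held 14 to 28 UMIs of it.

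*Jund*, the most constitutive Jun family gene, varied widely between mice. In the 37532 granule neurons, its level was 172.6, 153.5 and 58.4 counts per 1000000 UMIs of the sum (CPM) in SCA1 mice 1, 2 and 3, and 133.5, 89.5 and 38.2 CPM in WT mice 1, 2 and 3. The third mouse of each genotype was lowest, and the groups overlapped. *Jun*, the founding member of the family, was at 51.5, 54.6 and 28.1 CPM in SCA1 mice and at 38.1, 36.5 and 18.2 CPM in WT mice. Its lowest mouse was again the third of each genotype. *Junb*, a Jun family member that is itself rapidly induced, was at 9.07, 9.03 and 5.19 CPM in SCA1 mice and at 8.92, 9.75 and 5.94 CPM in WT mice.

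*Fos*, the classical activity marker, followed another order. Its granule neuron level was 15.1, 14.4 and 15.2 CPM in SCA1 mice and 7.73, 21.9 and 18.7 CPM in WT mice, so that WT mouse 1 was lowest and WT mouse 2 highest. The Fos family members *Fosl2* (2.86, 2.63 and 3.54 CPM in SCA1 and 2.07, 4.00 and 5.55 CPM in WT mice) and *Fosb* (0.308 to 0.737 CPM over the 6 mice) were likewise not lowest in the third mouse of either genotype. *Nr4a1*, an orphan nuclear receptor induced by calcium signals, was at 27.4, 19.9 and 36.3 CPM in SCA1 mice and at 18.3, 40.9 and 43.3 CPM in WT mice, with the third mouse of each genotype highest. *Egr1*, a zinc finger factor of the same response, was at 18.2, 10.6 and 6.79 CPM in SCA1 mice and at 22.7, 10.0 and 9.14 CPM in WT mice. *Arc*, which encodes a postsynaptic protein that controls AMPA receptor removal, was at 4.19, 2.84 and 1.42 CPM in SCA1 mice and at 5.13, 2.66 and 1.08 CPM in WT mice. For *Egr1* and *Arc*, as for *Jund*, the third mouse of each genotype was lowest.

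**Figure D1:**
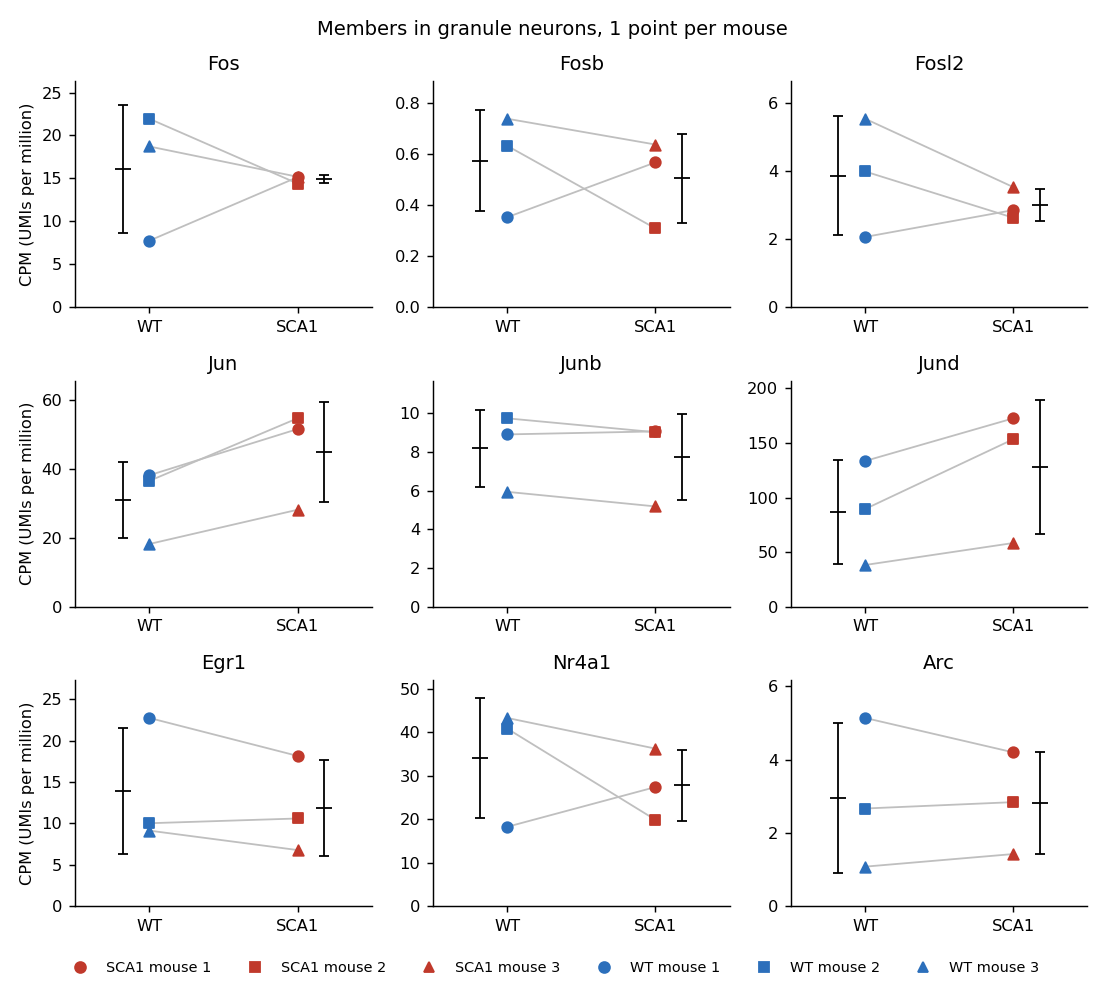
Level of each of the 9 genes in granule neurons, in CPM on a linear axis from 0, with 1 point per mouse, gray lines joining the WT and SCA1 mouse of the same number, and bars at the mean ± SD of the 3 mice. *Jund*, *Egr1* and *Arc* are lowest in the third mouse of each genotype, while *Nr4a1* is highest there.

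The highest granule neuron level was 4.75 times the lowest for *Arc*, 4.52 for *Jund*, 3.35 for *Egr1*, 3.00 for *Jun* and 2.84 for *Fos*. It was 1.88 times the lowest for *Junb*, beside a median of 1.90 over 16421 genes, computed with 0.5 added to each count. Without the lowest mouse these ratios were 3.60 for *Arc*, 2.96 for *Jund*, 2.49 for *Egr1*, 1.94 for *Jun* and 1.52 for *Fos*. In PCs, *Jund* ranged 15.5-fold, where WT mouse 3 held 3 UMIs of it, and 4.93-fold without that mouse. With 0.5 added to each count the range over 6 mice was 13.4-fold, more than for 98.8% of 8100 genes there, whose median was 2.01. Computed likewise for granule neurons, *Jund* ranged wider than 85.5% of genes, *Arc* 86.4%, *Egr1* 76.2%, *Jun* 72.5%, *Fos* 70.2% and *Junb* 49.4%. For glia, *Jund* ranged wider than 92.4% (BG), 84.4% (VA) and 78.9% (OL). Granule neuron levels fell from mouse 1 to mouse 3 of both genotypes at least as far as those of *Jund* for 8.71% of genes. That percentage was 12.9% for *Egr1*, 22.3% for *Jun* and 4.84% for *Arc*. The share of UMIs from mitochondrial genes moved with *Jund*, *Egr1* and *Arc*. It was 3.29%, 1.98% and 0.630% in the SCA1 mice, in the order of their numbers, and 4.53%, 1.61% and 0.740% in the WT mice. The fall from mouse 1 to mouse 3 also runs between batches, since mouse 1 of each genotype was set apart from mice 2 and 3. The shallowest nucleus kept differed too. Its depth was 3890 (SCA1) and 3932 UMIs (WT) for mouse 1. For mouse 2 it was 1739 and 1000, and for mouse 3 it was 1467 and 1053. The part of mitochondrial share, batch or this lowest depth in these levels was not tested.

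Across cell types, *Jun*, *Jund* and *Nr4a1* were lower than in granule neurons in most labels, as a share of RNA, while *Fos*, *Egr1* and *Junb* were lower in fewer. Each of 12 labels was compared with the granule neurons of the same mice by edgeR's quasi-likelihood test, with mouse as a term, and a gene was called where its p, adjusted by Benjamini-Hochberg over 13286 genes, did not exceed 0.05. *Jun*, *Junb*, *Jund*, *Fos*, *Egr1* and *Nr4a1* passed the filter on low counts, and *Fosb*, *Fosl2* and *Arc* did not. Of 72 tests, 43 were called lower and 1 higher, where 16.8% to 33.0% of all genes were called lower and 11.0% to 30.1% higher per label. The calls numbered 38 with DESeq2, of which 3 were higher, 38 with RLE size factors (2 higher) and 44 with library size only (3 higher). With TMM factors, 2 calls were higher with no filter (108 tests) and 2 where label and cluster agreed (88 tests). Leaving out WT mouse 1 or WT mouse 3 also gave 2 each. *Jun* was lower in 11 of the 12 labels, *Jund* and *Nr4a1* in 10 each, *Fos* in 6, *Egr1* in 4 and *Junb* in 2. Not all calls held under the other settings tried, thinning aside: 9 of 11 did for *Jun*, 9 of 10 for *Jund*, 6 of 10 for *Nr4a1*, 4 of 6 for *Fos*, 2 of 5 for *Egr1* (its higher call included) and 1 of 2 for *Junb*. Outside glia, *Nr4a1* lost its call under Neuron.Gad1Gad2.Lgi2 (-0.69, and -0.31 where label and cluster agreed), Neuron.Gad1Gad2.Pvalb-Chrm2 (-1.01 and -0.62), Endothelial_Tip.Dcn.Nnat (-0.90, and -0.68 with RLE size factors) and Neuron.Slc17a6.Nrgn (-0.68, and -0.65 with DESeq2). *Egr1* lost it under Neuron.Gad1Gad2.Pvalb-Nefh (-0.85, and -0.78 with RLE size factors) and, where label and cluster agreed, under Neuron.Gad1Gad2.Pvalb-Chrm2, as did *Jun* there and *Fos* under Neuron.Gad1Gad2.Lgi2. Under Pvalb-Chrm2 the agreeing nuclei were 38, all of SCA1 mouse 1, so that this setting rested on 1 mouse. Under Lgi2 they came from SCA1 mouse 1 (50), WT mouse 1 (36) and WT mouse 2 (29) only. Losses in that setting enter the counts above.

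In PCs, the sole output neurons of the cerebellar cortex, 5 of the 6 were lower, where 33.0% of all genes tested were called lower and 63.1% in either direction. *Egr1* differed most, with a log2 fold change against granule neurons of -2.90 (SE 0.55, adjusted p = 4.15e-06, edgeR). Its level was 1.98, 0 and 0 CPM in the PCs of SCA1 mice and 2.47, 0 and 1.80 CPM in those of WT mice, from 15 UMIs in all. In the mice at 0, a count of 0 allows up to 1.72 (SCA1 mouse 3), 2.78 (SCA1 mouse 2) and 3.62 CPM (WT mouse 2), for counting error only. *Nr4a1* followed at -2.53 (SE 0.33, adjusted p = 5.19e-10). *Jund* was lower at -1.84 (SE 0.16, adjusted p = 4.13e-17), *Jun* at -1.58 (SE 0.21, adjusted p = 3.73e-10) and *Fos* at -1.16 (SE 0.34, adjusted p = 0.00207). *Junb* did not pass, at -0.39 (adjusted p = 0.33), with 5.53, 3.70 and 0.572 CPM in SCA1 and 5.25, 10.8 and 2.69 CPM in WT mice. *Arc* was counted in 2 of the 6 mice only, where SCA1 mouse 1 held 3 UMIs and WT mouse 1 held 2.

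These differences are in a share of RNA, and PCs hold far more of it. The median PC had 36466.5 UMIs and the median granule neuron 5923. Scaling by library size alone, in place of TMM, moved the median of all genes in PCs from -0.08 to -0.55 on the log2 scale, and under it *Jund* stood at -2.30 and *Junb* at -0.88, then called lower (adjusted p = 0.0188, edgeR). Per nucleus, the PC count of *Jund* was 103% ± 40.9 (SD, n = 6 mice) of that in granule neurons, that of *Jun* 135% ± 66.9, that of *Fos* 179% ± 68.8 and that of *Junb* 337% ± 292. *Egr1* was at 35.3% ± 42.5 per nucleus and *Arc* at 33.6% ± 57.7. Some other neuron labels in which a gene was called lower as a share held more of it per nucleus. *Jund* was at 124% ± 21.1 under Neuron.Gad1Gad2.Lgi2 and 151% ± 59.3 under Neuron.Slc17a6.Nrgn, above granule neurons in 6 of 6 mice in both. *Nr4a1* was at 159% ± 42.8 under Neuron.Gad1Gad2.Pvalb-Chrm2 (6 of 6 mice), 207% ± 92.9 under Neuron.Gad1Gad2.Lgi2 and 215% ± 105 under Neuron.Slc17a6.Nrgn (5 of 6 mice each). *Jun* ranged from 67.7% under Neuron.Gad1Gad2.Lgi2 to 116% under Neuron.Gad1Gad2.Pvalb-Cadm1 in the 7 neuron labels other than PCs. RNA free in the suspension adds to such counts. *Gabra6* and *Cbln3*, which mark granule neurons, reached 24.2% and 54.2% of the granule neuron count in each PC on average.

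*Nr4a1*, *Fos* and *Jun* were called lower in each of the 3 glial types. In BG, the radial astrocytes of the PC layer, *Nr4a1* was lower by a log2 difference of -1.74 (edgeR, SE 0.28, adjusted p = 1.26e-07). There *Junb* stood at -1.20, *Fos* at -1.14, and *Jun* and *Jund* at -0.58 each, all called lower, where 31.7% of genes were, beside 27.1% higher and 58.9% in either direction. In VA, the astrocytes of the granule layer, the same 5 genes were called lower, from -1.79 for *Nr4a1* to -0.41 for *Jund*, where 29.6% of genes were and 25.6% were called higher. The calls of *Fos*, *Junb* and *Jund* in VA ended with RLE size factors (log2 fold changes -0.66, -0.79 and -0.22) and with DESeq2. In OL, whose label holds the myelin genes and also the precursor genes *Pdgfra* (69.0 CPM) and *Cspg4*, the latter at its highest of the 13 labels, *Nr4a1* (-1.81), *Fos* (-1.06) and *Jun* (-0.46) were lower, where 27.4% of genes were, and *Jun* did not pass with RLE size factors (-0.35). *Jund* did not pass there at -0.16 (adjusted p = 0.353), and its level was 93.7% ± 15.4 (SD, n = 6 mice) of that in granule neurons. *Egr1* did not pass in BG (-0.67), VA (-0.64) or OL (-0.29). In these 3 types *Gabra6* was at 15.2% to 19.2% of its granule neuron level and *Cbln3* at 34.6% to 42.9%. *Nr4a1*, at 28.4% to 31.7%, lay between them, and *Jun* and *Jund*, at 62.5% to 93.7%, lay above both.

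**Figure D2:**
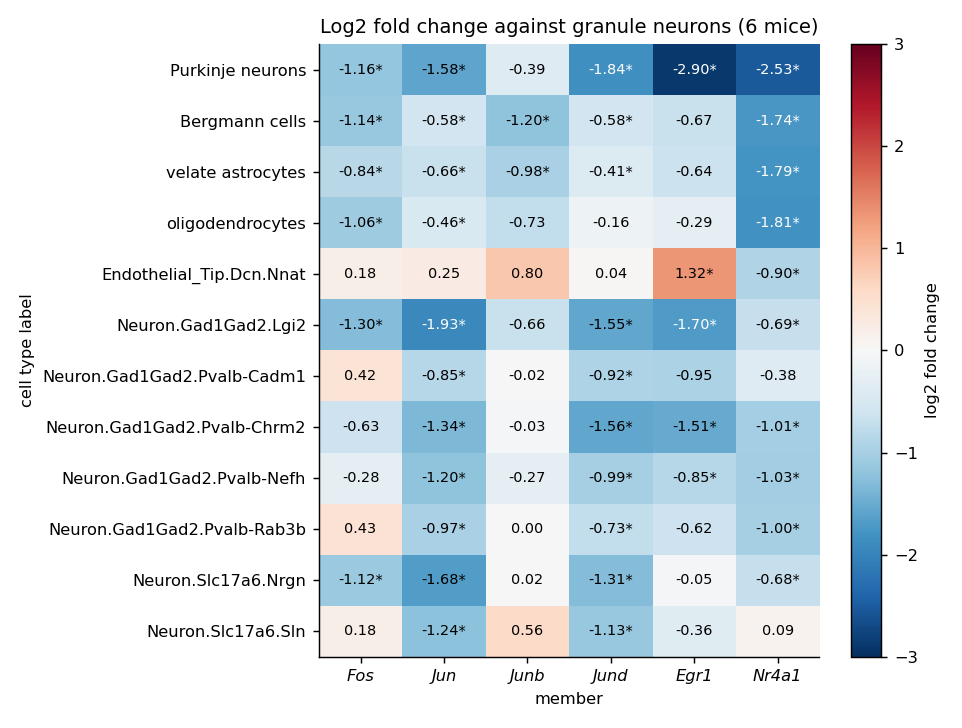
Color map of the log2 fold change of the 6 members that passed the filter (columns) in each of 12 cell labels (lines of squares) against granule neurons of the same 6 mice, from the edgeR fit, blue for lower, red for higher and an asterisk for a call. *Jun* and *Nr4a1* are blue with an asterisk in 11 and 10 labels, and *Egr1* under Endothelial_Tip.Dcn.Nnat (1.32) is the 1 called higher in this fit.

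*Arc* stood apart from the others in OL, whose cells and precursors were not separated. Its level there was 6.81, 7.80 and 5.82 CPM in SCA1 mice and 7.29, 5.18 and 1.17 CPM in WT mice, above the granule neurons of the same mouse in 6 of 6 mice. WT mouse 3 was lowest, and WT mice 2 and 3 rested on 2 UMIs and 1 UMI. The mean was 215% ± 110 (SD, n = 6 mice) of the granule neuron level, while *Arc* had not passed the filter and so had no test here. With no filter its log2 fold change was 0.86 (adjusted p = 0.0564, edgeR), and where label and cluster agreed it was 0.90 (adjusted p = 0.0302). A mean *Arc* level above granule neurons was not particular to OL. It was 254% ± 347 under Neuron.Slc17a6.Nrgn, 213% ± 297 under Neuron.Slc17a6.Sln, 157% ± 105 under Neuron.Gad1Gad2.Lgi2 and 131% ± 158 under Neuron.Gad1Gad2.Pvalb-Chrm2. *Fosl2* was above granule neurons in VA in 4 of 6 mice, at 3.74 ± 2.49 against 3.44 ± 1.24 CPM (SD, n = 6 mice), a difference within the spread. Its highest mean over the 13 labels was 8.67 ± 8.69 CPM, under Endothelial_Tip.Dcn.Nnat.

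In the main fit, with TMM factors, the filter, all 6 mice and all nuclei, the 1 call above granule neurons was *Egr1* under Endothelial_Tip.Dcn.Nnat. There 24.6% of genes were called higher and 55.6% in either direction. The log2 difference was 1.32 (edgeR, SE 0.39, adjusted p = 0.00271). The levels were 10.2, 31.5 and 94.3 CPM in SCA1 mice and 28.1, 19.8 and 0 CPM in WT mice, and 55 of the 87 UMIs came from SCA1 mouse 3. Without that mouse the log2 fold change was 0.19 and not called. *Junb*, at 0.80 under this label, was called higher with DESeq2 (1.02), RLE size factors (1.01), library size only (1.09) and without WT mouse 1 (0.98) or WT mouse 3 (0.94), and *Jun*, at 0.25, with DESeq2 (0.45) and library size only (0.53). *Jun* and *Jund* had their highest means over the 13 labels there, at 53.5 ± 18.0 and 128 ± 41.0 CPM (SD, n = 6 mice). Next in order were granule neurons, above which *Jun* lay in 5 of 6 mice and *Jund* in 3 of 6.

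The order of the labels differed between members, and most neighbors in it did not differ beyond their spread. For *Fos* the highest means were under Neuron.Gad1Gad2.Pvalb-Rab3b (25.0 ± 15.9 CPM), Neuron.Gad1Gad2.Pvalb-Cadm1 (21.5 ± 13.2 CPM), Endothelial_Tip.Dcn.Nnat (20.5 ± 20.7 CPM) and Neuron.Slc17a6.Sln (18.4 ± 5.23 CPM), followed by granule neurons at 15.5 ± 4.77 CPM (SD, n = 6 mice each). PCs were lowest at 4.79 ± 2.51 CPM. For *Nr4a1*, Neuron.Slc17a6.Sln (38.3 ± 21.0 CPM) and granule neurons (31.0 ± 10.7 CPM) were highest, and the 3 glial types (7.21 to 8.24 CPM) and PCs (3.88 ± 3.60 CPM) formed the lower end. For *Junb*, 6 labels lay above granule neurons (7.98 ± 1.91 CPM), and BG were lowest at 3.11 ± 2.16 CPM. For *Jund* the order fell from OL (98.5 ± 48.7 CPM) through VA (85.8 ± 44.0 CPM) to BG (72.8 ± 47.9 CPM) among glia, with VA above BG in 6 of 6 mice. Under Neuron.Slc17a6.Nrgn, WT mouse 2 was high in *Egr1* (73.0 CPM), *Junb* (32.8 CPM), *Fos* (29.2 CPM) and *Arc* (25.5 CPM), on 22 nuclei and 7 to 20 UMIs each.

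Labels with fewer nuclei were not tested. The 3 Endothelial_Stalk labels held 136 nuclei in all. *Jun* averaged 213 ± 195 CPM in them (SD, n = 6 mice), with 84.7, 139 and 356 CPM in SCA1 mice and 120, 541 and 36.8 CPM in WT mice. It was above the granule neurons in 6 of 6 mice, on 2 UMIs in WT mouse 3. *Jund* averaged 223 ± 90.0 CPM and was above them in 5 of 6, and *Junb* averaged 46.7 ± 36.6 CPM, also in 5 of 6. *Fosl2* averaged 21.0 ± 14.9 CPM, again above them in 5 of 6, on 31 UMIs in all. The 125 microglia held 31 UMIs of *Jun* (50.1 CPM, 95% exact Poisson interval 34.1 to 71.2), 74 of *Jund* (120 CPM, 94.0 to 150.2) and 2 of *Fos* (3.23 CPM, 0.392 to 11.7), intervals that cover counting error only.

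The comparison of SCA1 with WT asked whether the PC transgene was accompanied by a change of these genes in PCs or in the cells around them. No member was called, in 49 tests over 13 labels or with all nuclei summed, by edgeR with genotype and batch as terms. The share of genes called was 0.0% in PCs, BG and VA, 0.00917% in OL, 0.00566% in granule neurons and 0.0051% with all nuclei summed. None of the 49 tests had an unadjusted p under 0.05, beside 653 of 9821 genes in PCs and 313 of 17656 in granule neurons. DESeq2 called 0 members as well. The smallest unadjusted p was 0.0516, for *Jun* in PCs.

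*Jun* passed the filter in 11 labels, and its log2 fold change of SCA1 over WT was positive in 11 of 11, from 0.26 to 1.15 with a median of 0.46. *Jund* was positive in 12 of 13, from -0.04 to 1.04 with a median of 0.49. The median over all genes was within 0.02 of 0 in each label. Labels of 1 mouse share a library and the same free RNA, so they are not independent.

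In PCs, *Jun* was at 12.3, 22.2 and 8.01 CPM in SCA1 mice and at 8.33, 3.62 and 2.69 CPM in WT mice, with 3 UMIs in each of WT mice 2 and 3. SCA1 mouse 3 lay below WT mouse 1, so that the groups overlapped. The log2 fold change was 1.15 (SE 0.52, adjusted p = 0.757, edgeR). *Jund* was at 39.1, 41.6 and 10.3 CPM in SCA1 mice and at 30.9, 8.44 and 2.69 CPM in WT mice, which gave 1.04 (SE 0.56, adjusted p = 0.846). Leaving out 1 mouse moved *Jun* between 0.72 and 1.99 and *Jund* between 0.41 and 2.02.

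**Figure D3:**
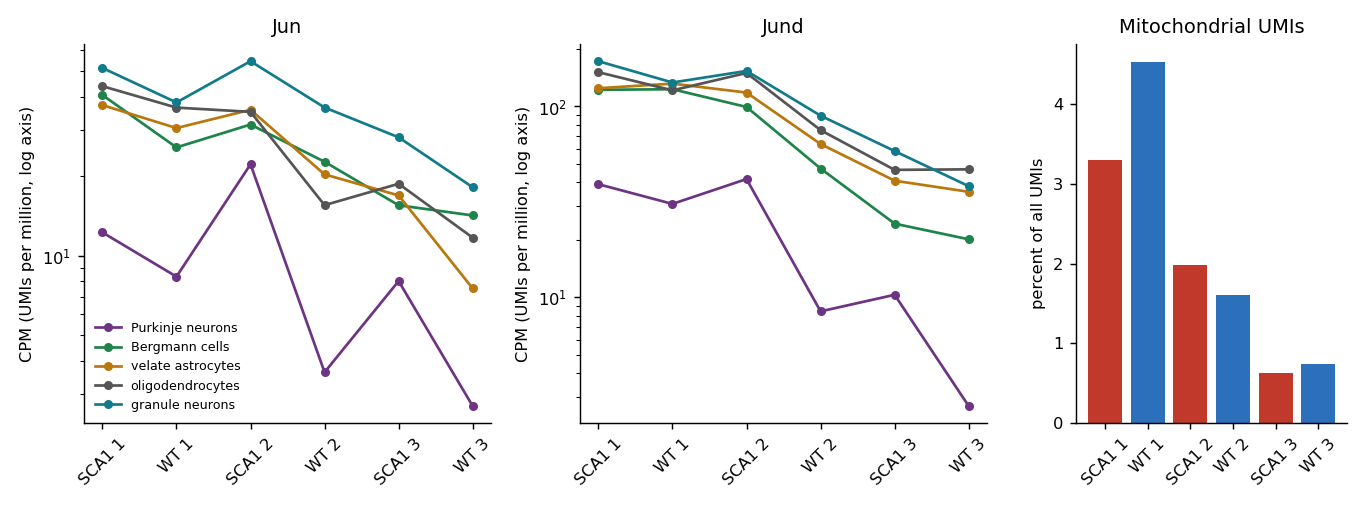
Levels of *Jun* and *Jund* in PCs, BG, VA, OL and granule neurons, in CPM on a log axis, with 1 point per mouse and a line of 1 color per cell type, beside bars of the percent of all UMIs from mitochondrial genes, red for SCA1 and blue for WT mice. The points of SCA1 and WT mice overlap in each cell type, and the third mouse of each genotype, at the right, is lowest or among the lowest in both genes and in the bars.

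In granule neurons the log2 fold change was 0.51 (SE 0.26, adjusted p = 1) for *Jun* and 0.57 (SE 0.36, adjusted p = 1) for *Jund*. The SCA1 mouse was above the WT mouse of the same number in 3 of 3 pairs for both genes, as 16.8% of 16421 genes were. The ratios were 1.35, 1.50 and 1.55 for *Jun* and 1.29, 1.72 and 1.53 for *Jund*. With the replicate number as a block, the unadjusted p in granule neurons was 0.00049 for *Jun* (adjusted p = 0.205) and 0.00073 for *Jund* (adjusted p = 0.275), and neither was called. In PCs the block gave adjusted p of 0.361 and 0.369. The labels give the mice these numbers without saying that same-numbered mice belong together.

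In the glial types the log2 fold changes of *Jun* were 0.46 in BG, 0.59 in VA and 0.60 in OL, and those of *Jund* were 0.47, 0.35 and 0.51. *Jun* was at 40.7, 31.4 and 15.5 CPM in the BG of SCA1 mice and at 25.7, 22.7 and 14.2 CPM in those of WT mice. *Jund* in OL was at 151, 149.8 and 46.5 CPM in SCA1 mice and at 121, 75.1 and 46.8 CPM in WT mice. Each of these groups overlapped, and the third mouse of each genotype was lowest in both genes. For *Jun*, the SCA1 mouse lay above the WT mouse of the same number in each pair in BG, VA and OL. The same was so for 14.9%, 12.4% and 12.2% of genes there. For *Jund* it was not so in any of these types. Without 1 mouse, *Jund* ranged from -0.15 to 0.82 in BG and from -0.14 to 0.67 in VA.

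**Figure D4:**
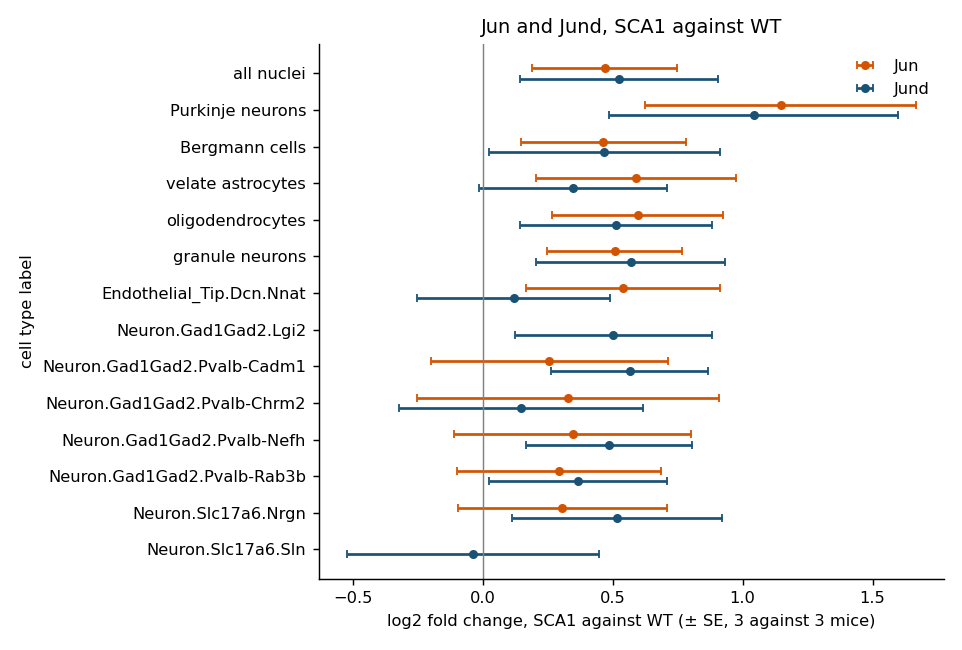
Log2 fold change of *Jun* and *Jund* in SCA1 against WT mice in each cell label, from the edgeR fit with genotype and batch, with 1 SE. The values of *Jun* run from 0.26 to 1.15 and those of *Jund* from -0.04 to 1.04, and none was called.

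The other members gave smaller differences in granule neurons, where each passed the filter. Their log2 fold changes were -0.29 for *Fosl2*, -0.25 for *Egr1*, -0.21 for *Nr4a1*, -0.12 for *Junb*, -0.07 for *Fosb*, -0.02 for *Arc* and -0.01 for *Fos*, with SE of 0.17 to 0.49. Over the labels where they were tested, *Junb* was negative in 3 of 3, *Nr4a1* positive in 2 of 8, *Fos* in 2 of 6 and *Egr1* in 2 of 5. Over the 13 labels, the groups did not overlap for *Fos* in 2, higher in SCA1 mice, and for *Junb* in 1, lower in SCA1 mice. In VA, *Fos* stood at 9.88, 8.25 and 8.96 CPM in SCA1 mice and 7.97, 2.54 and 5.64 CPM in WT mice, as was so for 4.57% of genes there. It rested on 1 and 3 UMIs in WT mice 2 and 3 and had not passed the filter. Under Neuron.Gad1Gad2.Lgi2, *Fos* was at 7.95, 7.53 and 6.01 CPM in SCA1 and 4.20, 0 and 3.34 CPM in WT mice, where 5.39% of genes did not overlap. Under Neuron.Gad1Gad2.Pvalb-Rab3b, *Junb* was at 7.42, 4.47 and 7.46 CPM in SCA1 and 7.95, 22.3 and 9.87 CPM in WT mice, where 5.04% did not. These shares are of genes with a mean of at least 20 UMIs per mouse, and the 3 values rested on fewer.

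Whether the SCA1 difference in PCs, BG, VA or OL departed from that in granule neurons was tested as an interaction, with mouse as a term. No member was called, nor was any gene (0.0% in each of the 4 comparisons), and 0 of the 32 member tests had an unadjusted p under 0.05, beside 745 of 16043 genes for PCs. For *Jun* in PCs the difference from granule neurons was 0.60 (SE 0.38, adjusted p = 1), and for *Jund* it was 0.33 (SE 0.35, adjusted p = 1). For *Arc* in OL it was 0.75 (SE 0.57, adjusted p = 1). DESeq2 called 0 members too.

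Counted as a share of nuclei with at least 1 UMI, *Jund* was detected in 43.1% ± 25.5 of PCs and 43.3% ± 22.2 of granule neurons, and *Fos* in 12.6% ± 4.30 and 7.76% ± 2.67 (SD, n = 6 mice). When each nucleus was thinned to 2000 UMIs, these shares became 5.51% and 19.4% for *Jund* and 2.53% and 3.13% for *Fos*. For *Fos* the thinned shares differed within their spread, with SD of 1.49 in PCs and 0.889 in granule neurons. Its higher share in PCs therefore did not hold at equal depth. Thinning left out 2743 nuclei of WT mouse 2 and at most 71 of any other mouse. None of the 45 comparisons of SCA1 with WT shares passed, in an exact permutation test that cannot go below p = 0.1 with 3 mice against 3.

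Detection in the same nucleus was asked of granule neurons thinned to 2000 UMIs, of which 996 had a UMI of *Fos*. *Nr4a1* was found in 11.5% ± 4.79 of these and in 5.68% ± 2.00 of those without *Fos* (SD, n = 6 mice). The difference was 5.80 percentage points (SD 3.12), and it was positive in 6 of 6 mice, from 2.77 to 10.6, as was so for 1.78% of 11124 genes found in at least 1% of the nuclei without *Fos*. The ratio of the mean shares was 2.02 for *Nr4a1* and 1.42 for *Egr1*, above 99.9% and 98.2% of those genes, whose median was 1.00, and it was 2.08 for *Junb*. The two-sided exact sign-flip permutation test gave p = 0.031, the smallest that 6 mice allow, and 0.0833 adjusted over the 8 members. With 8 members adjusted together, 1 member at that smallest p cannot pass by itself. *Egr1* was found in 3.63% against 2.55%, also higher in 6 of 6 mice (adjusted p = 0.0833, exact). *Junb* was higher in 5 of 6 mice and *Jun* in 4 of 6, while *Jund* was lower by 1.46 percentage points and in 0 of 6 mice higher (adjusted p = 0.0833, exact), where 2.21% of genes were lower in 6 of 6. At 3000 UMIs the difference of *Jund* was 0.0886 percentage points, and with all UMIs of each nucleus it was 2.64, so that its direction turned with depth, while that of *Nr4a1* was 7.25 and 12.1. The ratio of *Junb* rested on 29 nuclei with both genes at 2000 UMIs. At 3000 UMIs it was 1.21, above 92.4% of 12008 genes, and *Junb* was higher in 4 of 6 mice. Granule neurons without any of the 9 genes made up 53.8% to 76.4% per mouse after thinning, and no nucleus held more than 4 of them.

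**Figure D5:**
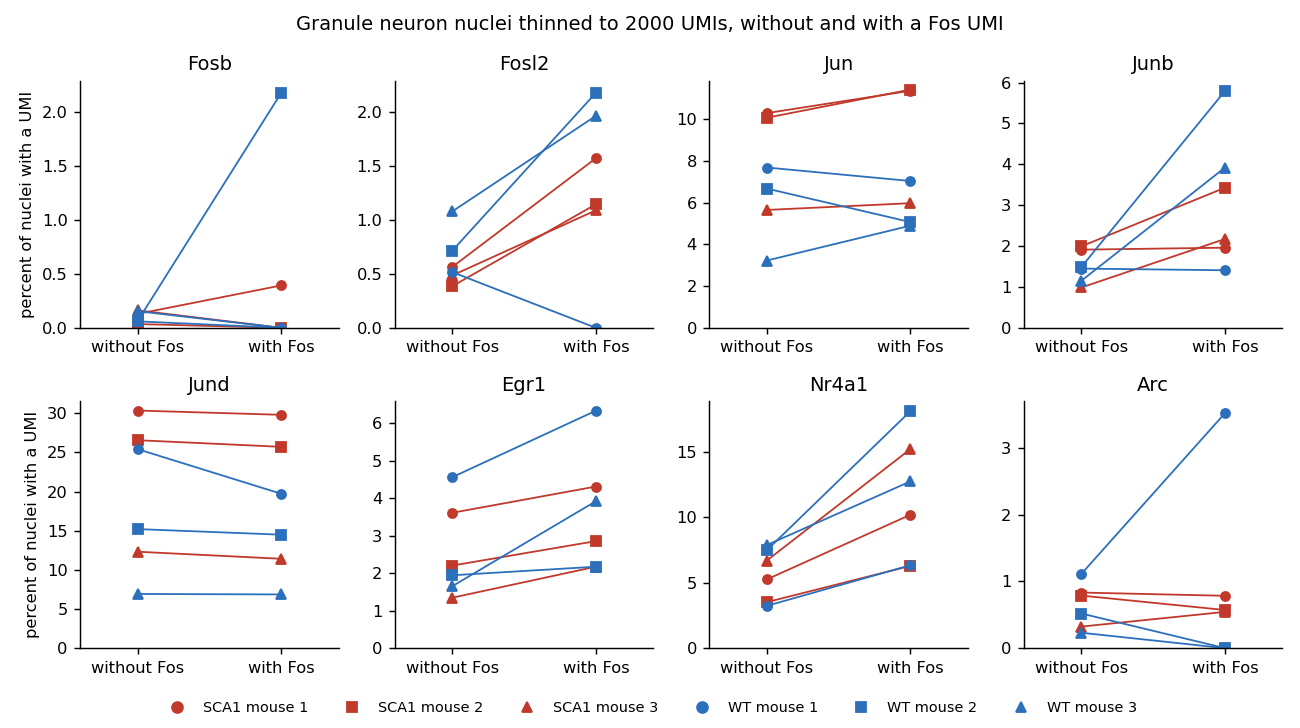
Share of granule neurons, thinned to 2000 UMIs, with a UMI of each other member among nuclei with and without a UMI of *Fos*, in percent, with 1 pair of points per mouse. For *Nr4a1* the nuclei with *Fos* lie higher in 6 of 6 mice, with means of 11.5% and 5.68%.

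Other genes of the response were read from lists. These held 18 further AP-1 and related leucine zipper genes, 33 symbols of further immediate early genes and 23 upstream kinases and factors. In PCs, BG, VA and OL against granule neurons, 7 of 36 tests of the first list were called higher and 13 lower. The second list gave 14 higher and 48 lower of 88, and the third 13 higher and 49 lower of 88. Of all genes, 24.3% to 30.1% were called higher and 27.4% to 33.0% lower in these 4 cell types. SCA1 against WT called 0 of 132, 171 and 282 tests of the lists.

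Of the leucine zipper genes, *Maf* was lower in PCs at a log2 fold change of -3.25 (11.8 ± 8.40 against 156 ± 9.38 CPM), in OL at -2.36 and in VA at -0.63. *Atf1*, a relative of CREB, was lower in VA (-0.62), OL (-0.37) and BG (-0.28), *Atf2* in BG (-0.26) and *Atf4*, a factor of the stress response, in PCs (-0.48). The cAMP-responsive factor *Crem* was higher in VA (1.30), BG (0.93) and PCs (0.48), the last in 3 of 6 mice by CPM. *Creb1*, which encodes CREB, was higher in BG (0.51) and OL (0.40), and *Jdp2*, which pairs with Jun proteins, in PCs (0.82).

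Of the immediate early genes, *Nr4a2*, a close relative of *Nr4a1*, was lower in PCs at a log2 fold change of -3.67 (2.18 ± 1.34 against 42.0 ± 15.3 CPM) and in BG at -2.46. *Npas4*, a neuronal activity factor, was lower in BG (-2.75) and VA (-3.78), *Btg2* in PCs (-3.16) and *Nr4a3* in OL (-2.66). *Dusp5*, a phosphatase that acts on ERK, was lower in VA (-2.08) and OL (-2.22). *Gadd45g* (2.62) and *Sik1* (1.94) were higher in VA, *Plk2* (1.71) and *Ier3* (1.50) in BG, and *Trib1* (2.61) and *Inhba* (2.24) in PCs.

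Among the kinases, *Camk4*, which phosphorylates CREB, was lower in PCs (-2.96), BG (-3.49), VA (-3.00) and OL (-3.20). *Camk2b* was lower in BG (-2.05), VA (-1.83) and OL (-1.83), and *Mapk3*, which encodes ERK1, in PCs (-1.39). *Camk2a* (5.35) and the activity-regulated factor *Mef2c* (2.08) were higher in PCs. *Map2k1*, a kinase upstream of ERK, was higher in BG (0.79) and VA (0.67), *Mapk9*, a Jun kinase, in BG (0.36), and *Rps6ka5* (0.97) and *Elk4* (0.41) in OL.

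Over the 78 sums per mouse and label, the genes whose level ran closest to that of *Jund* were *Ptms* (Pearson r = 0.93), *Rpl23* (0.93) and *Rpl13a* (0.93), the last pair of which encode ribosomal proteins. For *Jun* they were *Skp1a* (0.78), *Vim* (0.77) and *Wbp11* (0.73). For *Fos* they were *Nr4a2* (0.66), *Cnst* (0.61) and *Jmy* (0.59), for *Nr4a1* *Ctps2* (0.72), *Slc2a13* (0.68) and *R3hdm2* (0.65), and for *Egr1* *Cnbp* (0.69), *Matr3* (0.67) and *Gnai2* (0.67). *Junb* ran closest to *Pole3* (0.66), *Ly6e* (0.62) and *Tor1a* (0.60), and *Arc* to *Endod1* (0.65), *Olfm1* (0.63) and *Tmem151a* (0.63). *Fosl2* led with *4930594M22Rik.1* (0.61), *Dcun1d3* (0.58) and *Stat6* (0.58), and *Fosb* with *Ift80* (0.44), *E2f4* (0.42) and *Pold3* (0.40). Among members, *Jun* and *Jund* had r = 0.73, and *Fos* and *Nr4a1* 0.46. These r describe log2(CPM + 1) over 13286 genes, and sums of 1 mouse share its library and depth.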

How the data were processed

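Nuclei from the cerebella of 3 SCA1 and 3 WT mice were sequenced as 1 library per mouse. The authors aligned reads with Cell Ranger to mm10 with human *ATXN1* added, counting intronic reads, removed debris with DIEM and labelled nuclei with SingleR against DropViz. The submitters' processing notes name Cell Ranger 4.0.0, 5.0.1 and 6.0.1, Seurat 4.0.4 and R 4.1.0. The deposited values are whole-number UMI counts per gene and nucleus, not normalized. No doublet caller was run here. The authors' clusters are numbers, and each was given the most frequent label among its nuclei in that mouse. By that rule, label and cluster agreed in 43541 of 45473 nuclei, so the agreement is not a second, independent naming.

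Counts were summed per mouse and label, for labels with at least 10 nuclei in each mouse. The sums were fitted with edgeR 4.0.16 in R 4.3.3 (quasi-likelihood test, TMM factors, filterByExpr at count 10 and total 15, Benjamini-Hochberg adjustment over all genes of a fit, threshold 0.05). SCA1 against WT had genotype and batch as terms, where batch was read from the library numbers in the labels and set mouse 1 of each genotype apart from the others. The fits were tested on simulated counts with the same spread for all genes and no batch effect, where only genes of higher counts were changed. That test does not show how small a change of the members the fits could find. CPM are UMIs per 1000000 of a sum, without TMM. Shares, intervals and permutation tests used Python 3.11.15, numpy 2.4.6, pandas 2.3.3 and scipy 1.17.1. Other settings tried were leaving out each mouse, a block of the replicate number, no batch term, DESeq2 1.42.0, library size only, RLE factors, no filter, thinning, only nuclei of at least 3000 UMIs and only nuclei whose label and cluster agreed. The block with library size only was added after the data were seen.

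The deviations of same-numbered mice from their group means correlated at 0.83, 0.31 and 0.76 (mice 1, 2 and 3) with all nuclei summed, at 0.87, 0.26 and 0.79 in granule neurons and at 0.72, 0.14 and 0.63 in VA. The lowest of the 3 was 0.07 in PCs, 0.04 in BG and 0.09 in OL. In granule neurons, WT mouse 2 correlated more with SCA1 mouse 3 (0.39) than with SCA1 mouse 2 (0.26). In VA, SCA1 mouse 2 correlated more with WT mouse 1 (0.18) than with WT mouse 2 (0.14). Whether same-numbered mice belong together was thus not settled, and the block of the replicate number was used as an alternative only. The 9 members and the lists were chosen with earlier results of these data known. Of the lists, each gene called for SCA1 against WT was to be named, and the 2 highest and 2 lowest called per list and main cell type against granule neurons, and for each member the 3 genes with the highest r. Of the 33 symbols listed for further immediate early genes, 32 were in the tables. The list held both *Cyr61* and *Ccn1*, which name the same gene. Coordinates came from GENCODE on GRCm38 by gene symbol.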

Additional observations from a re-analysis of the deposited data

How the results depend on the processing

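Of the 44 calls against granule neurons, 31 were kept in every alternative that could test them, thinning aside, with 0 changes of sign. Calls under Neuron.Gad1Gad2.Pvalb-Rab3b could not be tested where label and cluster agreed, since none of its nuclei did. The number of calls was 38 with DESeq2 or RLE factors and 38 to 45 without 1 mouse. Thinning to 2000 UMIs left only *Jund* to be tested, with 9 of 12 called. No member was called in SCA1 against WT under any alternative, nor in the interaction, where the smallest adjusted p was 0.602.

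With the replicate number as a block, the genes called in SCA1 against WT rose from 1 to 6 in granule neurons, from 1 to 26 with all nuclei and from 0 to 172 in PCs. No member was among them, and the block changed no call of a member. With all nuclei it gave an adjusted p of 0.184 for *Jun* and 0.228 for *Jund*.

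In granule neurons, library size only turned *Fos* and *Arc* to 0.0147 and 0.0180 on the log2 scale, and the block with library size only to 0.0328 and 0.00717. Leaving out 1 mouse turned the sign of SCA1 against WT in granule neurons for *Fos* (-0.49 to 0.24), *Fosb* (-0.54 to 0.30), *Fosl2* (-0.68 to 0.0502), *Junb* (-0.26 to 0.0422), *Nr4a1* (-0.60 to 0.17) and *Arc* (-0.30 to 0.23), and for *Jund* in BG (-0.15 to 0.82) and VA (-0.14 to 0.67). Against granule neurons, the call of *Fos* in VA was lost without SCA1 mouse 2 (-0.83), WT mouse 2 (-0.71) or WT mouse 3 (-0.71), that of *Junb* in VA without SCA1 mouse 1 (-1.07), SCA1 mouse 2 (-0.79) or WT mouse 3 (-0.82), and that of *Jun* in OL without SCA1 mouse 2 (-0.46) or WT mouse 2 (-0.40). That of *Nr4a1* was lost under Endothelial_Tip.Dcn.Nnat (-0.89 to -0.79) and Neuron.Gad1Gad2.Lgi2 (-0.81 to -0.48) without any 1 of the SCA1 mice and under Neuron.Slc17a6.Nrgn without SCA1 mouse 3 (-0.44) or WT mouse 3 (-0.47), and that of *Egr1* under Neuron.Gad1Gad2.Pvalb-Nefh without SCA1 mouse 1 (-0.82), SCA1 mouse 2 (-0.67) or WT mouse 1 (-0.66). The cause was not tested.

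Joint detection with *Fos* passed for 5 members with all UMIs (adjusted p = 0.05, exact) and for 0 after thinning. After adjustment, a member at the smallest possible p passes only if enough other members reach that p too. These counts of passes therefore do not show that the difference of any 1 member was lost with depth. With all UMIs, 36.6% of 13462 genes were higher in 6 of 6 mice, beside 1.78% and 2.02% after thinning to 2000 and 3000 UMIs, and the ratio of shares for *Jun* (1.11) lay below the median of all genes (1.13). The difference for *Jund* was 0.0886 percentage points at 3000 UMIs and 2.64 with all UMIs. Without 1 mouse, that for *Fosb* ran from -0.0294 to 0.425 and that for *Arc* from -0.159 to 0.426. The remaining 5 mice cannot go below p = 0.0625 in that exact test. *Fosb*, *Fosl2* and *Arc* passed the filter for SCA1 against WT in 1 label only, granule neurons, and were not tested in the others. Nuclei whose label and cluster agree could not be fitted for SCA1 against WT under Neuron.Gad1Gad2.Lgi2, Pvalb-Chrm2 or Pvalb-Rab3b.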
